A study of Mus musculus with 20 samples.

Results

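The genes described here are 38 genes of glucose use and of the hypoxia response, measured in Lin-cKit+Sca1+ (LSK) cells, the bone marrow fraction that holds blood stem cells and early progenitors. They were taken as a list of symbols and matched to 38 of the 46078 genes in the deposited table. The list covers 4 sugar and lactate transporters, 3 hexokinases, 7 genes of upper glycolysis, 9 of lower glycolysis and lactate dehydrogenase, 5 regulatory kinases, 1 gene of gluconeogenesis, 4 of the pentose phosphate pathway, and 5 of the hypoxia-inducible factor (HIF) pathway and its targets. RNA was sequenced from 5 groups of C57Bl/6J mice aged 3 to 4 months, with 4 libraries a group. Each library was a pool of 2 mice, which the series names as 1 biological replicate. The controls (WT) were +/+;Vav-Cre. The mutant groups were Idh1LSL-R132H/+;Vav-Cre (Idh1R132H), Idh2LSL-R140Q/+;Vav-Cre (Idh2R140Q) and Idh2LSL-R172K/+;Vav-Cre (Idh2R172K), in which Cre driven by the Vav promoter, active in blood-forming cells, switches on 1 mutant allele. The fifth group was Tet2-/- (Tet2KO). Its label names no Vav-Cre, so loss of Tet2 and absence of the Cre transgene cannot be told apart in comparisons with WT or with an Idh group.

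Glycolysis splits glucose into pyruvate in the cytosol, and lactate dehydrogenase turns pyruvate into lactate. Fructose-1,6-bisphosphatase runs the phosphofructokinase step backwards in gluconeogenesis, and the pentose phosphate pathway takes glucose 6-phosphate into NADPH and ribose. HIF1, made of Hif1a and Arnt, is destroyed through prolyl hydroxylation and Vhl when oxygen is plentiful, and raises many glycolytic genes when oxygen is low; stem cells of the marrow are known for relying on glycolysis. The mutant IDH enzymes make 2-hydroxyglutarate, which inhibits some of the dioxygenases that use 2-oxoglutarate, among them TET2. The prolyl hydroxylases belong to the same family, and the effect of 2-hydroxyglutarate on them was not measured here.

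Read depth, rebuilt from the values, was 35.05 to 44.95 M assigned reads a library (M, 1000000 reads; median 39.12 M). Levels are in TPM (transcripts per 1000000, corrected for gene length), so they can be set side by side between genes. Transcripts of the LSK sort markers Kit and Ly6a (Sca1) were present in every group, as were those of Cd34, which is not part of the LSK definition. Mean Ly6a was 168 TPM in WT, 130 in Idh2R172K (adjusted p = 0.0317) and 292 in Tet2KO (adjusted p = 0.000999). Mean Kit was 391, 590 and 330 TPM and mean Cd34 493, 582 and 479 TPM in the same groups, with neither called in Idh2R172K or Tet2KO by limma. Tet2 gene-level TPM was 5.74 to 12.1 in Tet2KO and 6.67 to 9.23 in WT; the labels do not say which part of the gene is deleted, so this value does not check the genotype. Idh2 was at 887 to 1024 TPM in Idh2R172K and 470 to 647 in WT. Libraries differed in the share of TPM taken by 1 transcript, Gm23935. In Tet2KO replicate 2 it was 20.0%, against 9.57% to 10.9% in the other Tet2KO libraries, and 35 of the 38 genes had their lowest level of the group there. The share of all genes lowest in that library is not given here. In the number 4 libraries of WT and the 3 Idh groups the Gm23935 share was 7.55% to 8.13%, against 11.005% to 13.5% in numbers 1 to 3 of those groups. Counts of called genes are given with and without these libraries, and those on marker and further gene lists in Tet2KO with and without Tet2KO replicate 2.

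Promoter sequence is shown for 5 genes that the results turn on: Fbp1, Hk3 and Ldhb, which fell most in Idh2R172K, and Hk2 and Ankrd37, the 2 called higher there against WT. Each run covers 250 bases before to 50 bases after the RefSeq start site (GRCm38.p6), all 5 on the minus strand, written 5′ to 3′ along the gene. Capitals mark matches to the core of the HIF response element, searched as ACGTG and GCGTG and, for the other strand, CACGT and CACGC; where 2 matches overlap, the capitals run together. The windows are chr13:62888233-62888532 for Fbp1, chr13:55021336-55021635 for Hk3, chr6:142507908-142508207 for Ldhb, chr6:82774405-82774704 for Hk2 and chr8:45999801-46000100 for Ankrd37.
Fbp1: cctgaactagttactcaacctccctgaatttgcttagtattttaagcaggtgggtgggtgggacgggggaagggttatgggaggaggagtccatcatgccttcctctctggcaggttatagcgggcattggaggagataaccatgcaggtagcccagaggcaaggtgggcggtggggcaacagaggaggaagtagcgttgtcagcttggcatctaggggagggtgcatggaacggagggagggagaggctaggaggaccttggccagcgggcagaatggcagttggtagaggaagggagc
Hk3: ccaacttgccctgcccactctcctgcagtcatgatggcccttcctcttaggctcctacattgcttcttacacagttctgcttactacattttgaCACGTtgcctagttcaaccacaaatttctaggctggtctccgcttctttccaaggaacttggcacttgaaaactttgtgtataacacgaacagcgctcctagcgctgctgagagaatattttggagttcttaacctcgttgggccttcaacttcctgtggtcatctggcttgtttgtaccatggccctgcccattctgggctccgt
Ldhb: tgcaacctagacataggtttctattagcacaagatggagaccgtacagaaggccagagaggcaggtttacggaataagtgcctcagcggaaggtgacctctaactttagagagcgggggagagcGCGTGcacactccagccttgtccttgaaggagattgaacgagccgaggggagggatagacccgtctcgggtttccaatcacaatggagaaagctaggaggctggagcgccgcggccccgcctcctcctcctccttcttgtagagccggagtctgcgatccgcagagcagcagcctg
Hk2: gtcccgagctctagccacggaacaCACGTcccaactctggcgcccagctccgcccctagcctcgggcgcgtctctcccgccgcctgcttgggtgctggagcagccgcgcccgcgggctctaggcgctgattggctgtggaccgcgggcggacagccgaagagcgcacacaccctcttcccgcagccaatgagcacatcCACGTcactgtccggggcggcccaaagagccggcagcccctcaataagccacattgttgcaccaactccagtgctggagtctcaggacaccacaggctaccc
Ankrd37: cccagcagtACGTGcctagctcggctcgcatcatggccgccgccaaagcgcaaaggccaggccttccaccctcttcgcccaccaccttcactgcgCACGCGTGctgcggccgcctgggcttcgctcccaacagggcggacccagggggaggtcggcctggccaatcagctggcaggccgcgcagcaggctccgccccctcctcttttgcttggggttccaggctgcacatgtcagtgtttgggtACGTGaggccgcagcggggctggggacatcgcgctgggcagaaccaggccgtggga
The Fbp1 window held 0 matches, Hk3 and Ldhb 1 each, Hk2 2 and Ankrd37 4. Of the 37 genes with a RefSeq window, 32 (86.5%) had a match in at least 1 window, against 46.7% of all genes with one. Counted by window, 40 of 53 member windows (75.5%) and 43.8% of all 32851 windows held a match. Both motifs contain CpG, and the median window held 20 CpG among the members and 7 over all windows. These are matches of letters, not measured binding; Slc2a3 had no entry.

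Across the wild-type cells the pathway spanned over 3 orders of magnitude. Ldha, the main subunit of lactate dehydrogenase, was highest at a mean of 1355 TPM, and Pkm, pyruvate kinase, followed with 1104 TPM. Gapdh and Tpi1 stood at 647 and 628 TPM, and Aldoa, the main aldolase, at 496 TPM. Eno2, the neuronal enolase, was lowest: 0.416, 0.326, 0.223 and 0.602 TPM in the 4 WT libraries. It was the 1 gene of the 38 under the level required for testing, a mean of 1 TPM over all libraries, so 37 were tested. The 38 genes summed to 7314 ± 249 TPM in WT (SD, n = 4).

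**Figure D1:**
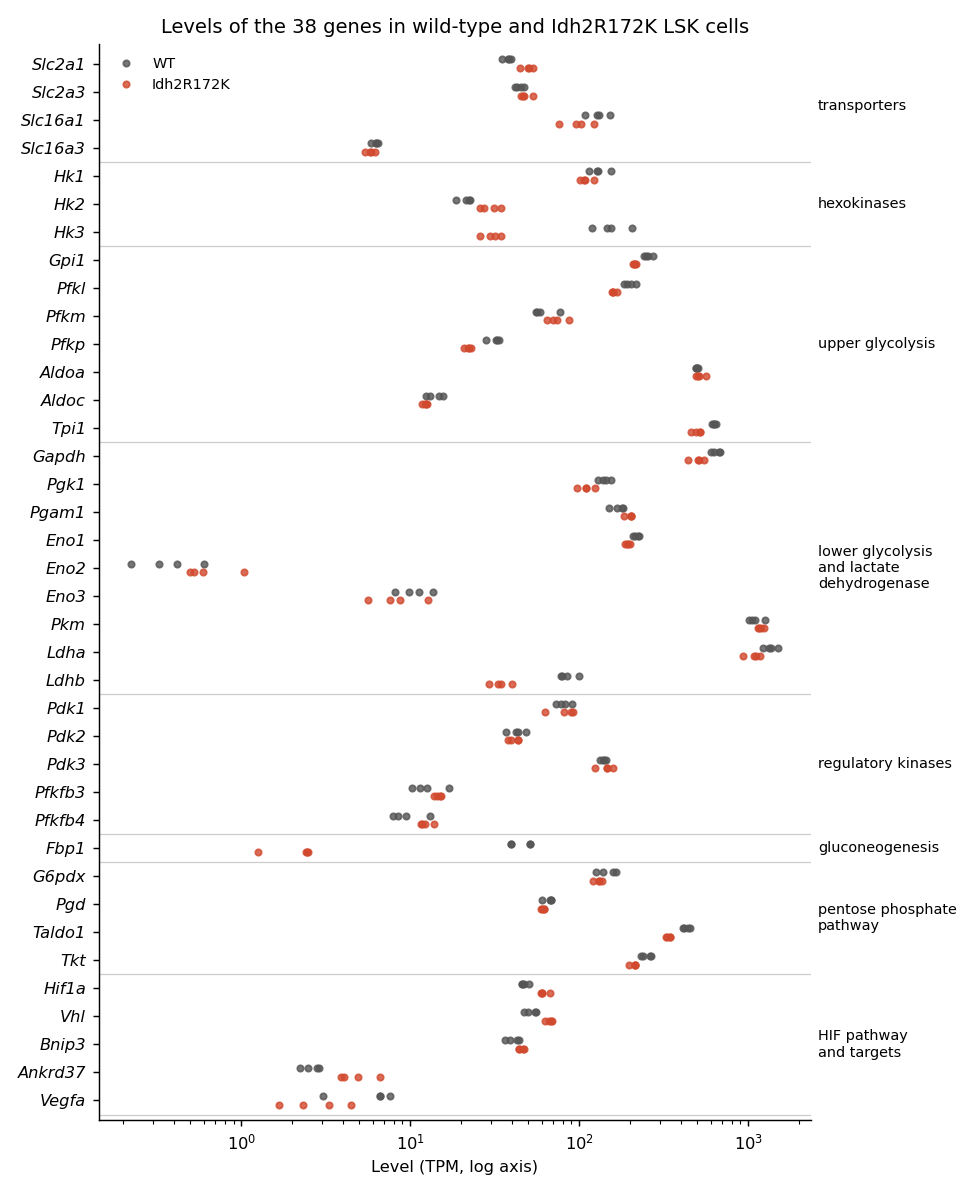
Level of each of the 38 genes in TPM (log axis) in the 4 WT (grey) and 4 Idh2R172K (red) libraries, grouped by role; each point is 1 library. The red points of Fbp1, Hk3 and Ldhb lie well to the left of the grey ones, and most other genes differ little.

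Idh2R172K against WT gave the most called genes among the 4 comparisons with WT. Fbp1, Hk3 and Ldhb fell by 3.89, 2.30 and 1.30 on the log2(TPM + 1) scale. A further 7 genes of glycolysis and the pentose phosphate pathway were called lower, by 0.26 to 0.50. Only Hk2 and Ankrd37 were called higher, while 14 of the 37 genes had a difference above 0. In all, 12 of 37 genes (32.4%) were called at an adjusted p under 0.05, 2 higher and 10 lower, where 15.4% of the 14176 genes tested were called, 8.03% higher and 7.33% lower. The median difference of the 37 genes was -0.17, against 0.11 for all genes. By libraries alone, 13 of the 37 genes lay below WT in all 4 libraries and 6 above, where 9.83% and 13% of all genes did. All comparisons with WT use the same 4 WT libraries.

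Fbp1, fructose-1,6-bisphosphatase of gluconeogenesis, stood at 39.3, 51.3, 39.7 and 50.8 TPM in WT. In Idh2R172K it stood at 2.48, 2.41, 1.25 and 2.46 TPM, from 26 to 58 rebuilt reads a library against 820 to 1249 in WT. Every Idh2R172K library was below every library of the other 4 groups. The mean was 21.04-fold lower than WT (log2 difference -3.89, SE 0.17, adjusted p = 2.9e-11). Levels in the other mutants were 34.4, 39.4, 32.3 and 39.1 TPM in Idh1R132H, 36.2, 50.6, 35.3 and 43.0 in Idh2R140Q, and 45.4, 28.0, 35.0 and 35.8 in Tet2KO. All 3 groups overlapped WT, and none was called. The gene lies on the minus strand at chr13:62864753-62888282 (mm10).

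Hk3, a hexokinase found mainly in blood cells, was at 145, 119, 154 and 206 TPM in WT. It was at 26.0, 34.4, 29.8 and 31.9 TPM in Idh2R172K, 5.12-fold lower (log2 difference -2.30, SE 0.18, adjusted p = 3.2e-08). Tet2KO held a middle level of 90.0, 59.9, 95.0 and 81.4 TPM. No library of WT, Tet2KO or Idh2R172K overlapped another of these groups. Hk2, the hexokinase often induced by HIF1, moved the other way: 22.2, 18.6, 22.6 and 21.3 TPM in WT and 27.4, 31.2, 34.4 and 26.0 TPM in Idh2R172K (log2 difference 0.47, SE 0.11, adjusted p = 0.00567). Its groups did not overlap, and the call was lost under quantile scaling (adjusted p = 0.13). Hk1, the broadly expressed hexokinase, had a mean of 131 TPM in WT and 110 in Idh2R172K and was not called (log2 difference -0.26, SE 0.23, adjusted p = 0.505).

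The make-up of the hexokinase step differed accordingly. Hk3 supplied 50.2% ± 2.9 of hexokinase TPM in WT (SD, n = 4), 17.9% ± 1.5 in Idh2R172K and 41.2% ± 5.1 in Tet2KO. Summed hexokinase TPM was 309 ± 54 in WT and 170.0 ± 8.9 in Idh2R172K (SD, n = 4), with no overlap between libraries (252 to 382 against 160 to 181). At the phosphofructokinase step, which commits sugar to glycolysis, the Pfkm share was 21.1% ± 1.8 in WT and 28.8% ± 2.7 in Idh2R172K. No test was run on these shares.

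**Figure D2:**
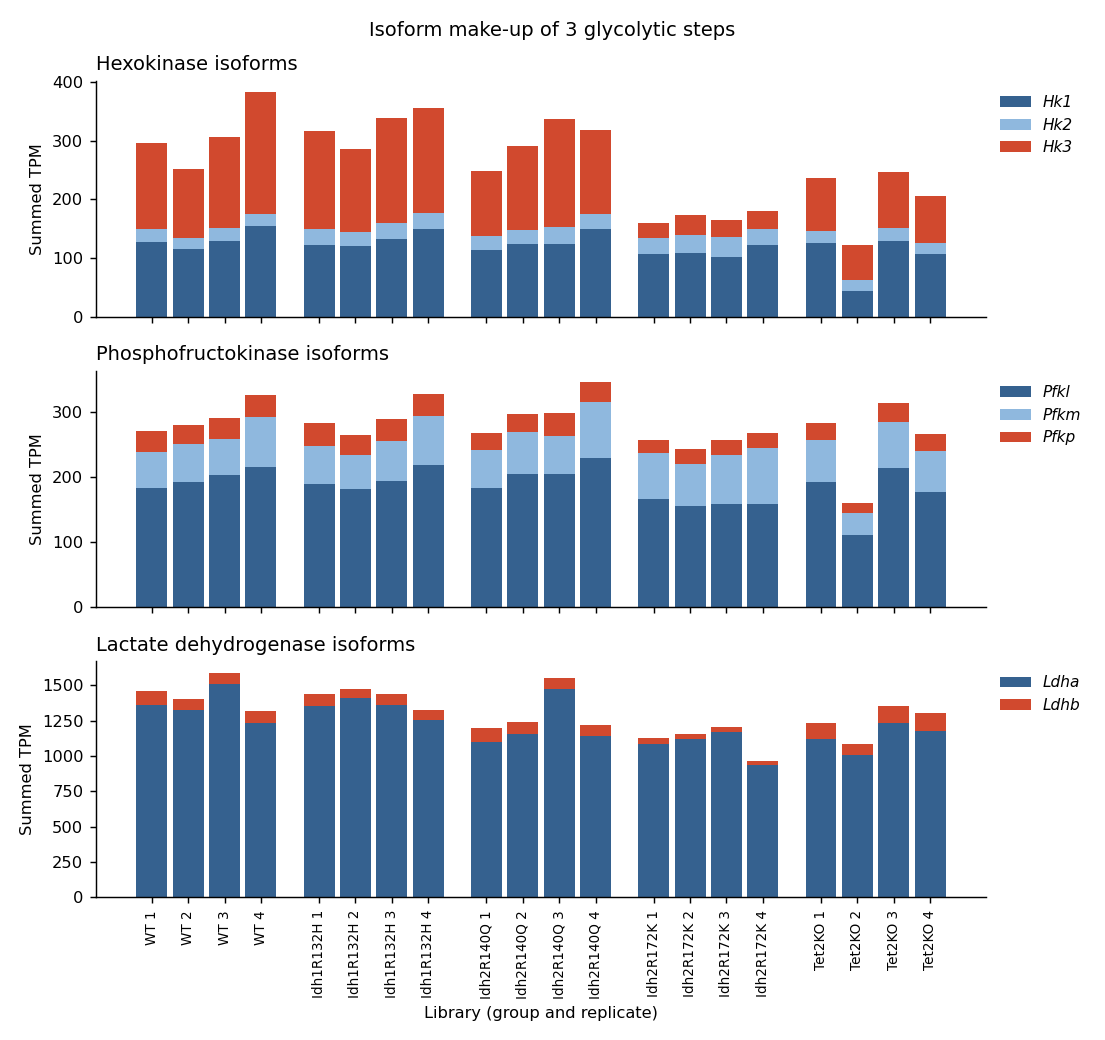
Summed TPM of the isoforms of hexokinase, phosphofructokinase and lactate dehydrogenase in each of the 20 libraries, with bars stacked by gene. The Hk3 (red, top row) and Ldhb (red, bottom row) portions are thin in the 4 Idh2R172K bars, and the hexokinase and phosphofructokinase bars of Tet2KO replicate 2 are the shortest of their group.

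Ldhb, the lactate dehydrogenase subunit that favours use of lactate, was at 99.3, 79.6, 78.5 and 84.4 TPM in WT. It was at 39.8, 33.1, 34.3 and 29.1 TPM in Idh2R172K, 2.51-fold lower (log2 difference -1.30, SE 0.13, adjusted p = 1.1e-06). The 4 Tet2KO libraries held 112, 82.2, 122 and 128 TPM, all above every Idh2R172K library. Ldhb made up 5.96% ± 0.83 of lactate dehydrogenase TPM in WT, 3.07% ± 0.32 in Idh2R172K and 8.87% ± 0.94 in Tet2KO (SD, n = 4). Ldha was at 1356, 1323, 1510 and 1230.5 TPM in WT and 1085, 1118, 1171 and 934 TPM in Idh2R172K (log2 difference -0.33, SE 0.10, adjusted p = 0.0236). The Ldha groups did not overlap. The call was lost under 6 of 33 alternatives: median-of-ratios and quantile scaling, limma-voom on rebuilt reads, and without WT replicate 1, WT replicate 3 or Idh2R172K replicate 4 (adjusted p up to 0.0912).

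**Figure D3:**
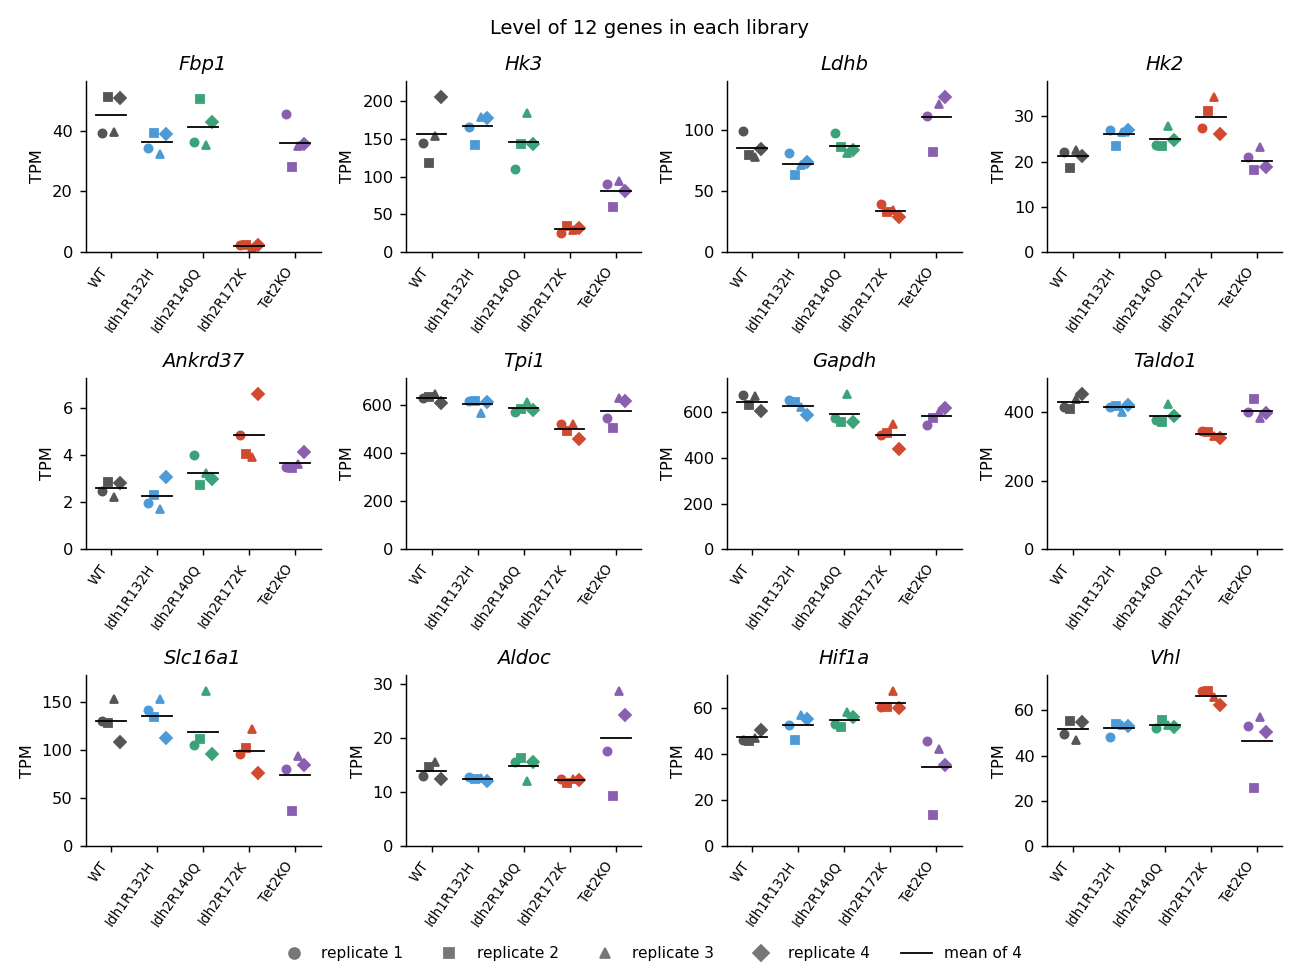
TPM of 12 genes in each library; the shape of a point gives the replicate number and the line the mean of 4, with every axis starting at 0. Fbp1, Hk3 and Ldhb are lowest in all 4 Idh2R172K libraries, and the Tet2KO replicate 2 square is lowest of its group for Hk3, Ldhb, Slc16a1, Aldoc, Hif1a and Vhl.

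Along the rest of glycolysis, smaller falls were shared by several enzymes. Tpi1, triose phosphate isomerase, was at 628, 632, 646 and 607 TPM in WT and 522, 491, 522 and 460 in Idh2R172K (log2 difference -0.33, SE 0.07, adjusted p = 0.00212). Gapdh, the next enzyme, was at 677, 632, 674 and 605 TPM in WT and 502, 508, 551 and 438 in Idh2R172K (log2 difference -0.37, SE 0.08, adjusted p = 0.00285). Neither gene's groups overlapped. Pgk1, phosphoglycerate kinase, went from 137, 145, 155 and 130 TPM to 110, 109, 124 and 97.1 TPM (log2 difference -0.36, SE 0.10, adjusted p = 0.0153). Gpi1, glucose phosphate isomerase, went from 248, 241, 257 and 273 TPM to 218, 210, 212 and 207 TPM (log2 difference -0.26, SE 0.08, adjusted p = 0.0345). Both groups of each gene were again apart. Pfkp, the platelet-type phosphofructokinase, went from 32.6, 28.2, 32.2 and 33.5 TPM to 20.7, 22.3, 22.9 and 22.0 TPM (log2 difference -0.50, SE 0.15, adjusted p = 0.0293). The call of Pgk1 was lost without WT replicate 3 or Idh2R172K replicate 4 (adjusted p up to 0.0619). That of Gpi1 was lost without any 1 of the WT or Idh2R172K libraries but WT replicate 2 (up to 0.0881), and that of Pfkp without any but WT replicate 2 and Idh2R172K replicate 3 (up to 0.0691).

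Not every step was lower. Aldoa was at 489 to 503 TPM in WT and 494 to 564 TPM in Idh2R172K, and was not called (adjusted p = 0.515). Pkm means were 1104 and 1183 TPM (adjusted p = 0.64). Pgam1, phosphoglycerate mutase, was at 150 to 182 TPM in WT and 185 to 203 TPM in Idh2R172K, apart but not called (adjusted p = 0.0907). Pfkl, the main phosphofructokinase, and Eno1, the main enolase, lay below WT in all 4 libraries without passing the test (adjusted p = 0.16 and 0.207). Pfkm, Aldoc and Eno3 overlapped WT. Summed over the 19 genes from hexokinase to lactate dehydrogenase, the level was 5725 ± 192 TPM in WT and 4972 ± 171.9 TPM in Idh2R172K (SD, n = 4), with the lowest WT library at 5511 and the highest Idh2R172K library at 5153. A low sum was not particular to Idh2R172K. It was 5028 ± 601 TPM in Tet2KO (4170 to 5485) and 5393 ± 428 TPM in Idh2R140Q (4985 to 5962), both overlapping Idh2R172K. In Idh1R132H it was 5640.5 ± 43.1 TPM. Several of these genes have many processed pseudogenes, and how the authors counted reads that match more than 1 place is not given in the sources used here.

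In the pentose phosphate pathway, Taldo1, transaldolase of the sugar-exchange arm, was at 416, 409, 438 and 455 TPM in WT and 347, 343, 332 and 325 TPM in Idh2R172K. The groups were apart (log2 difference -0.35, SE 0.06, adjusted p = 0.000399). Tkt, transketolase, which works beside it, lay below WT in all 4 libraries but was not called (log2 difference -0.25, SE 0.09, adjusted p = 0.0737). G6pdx and Pgd, the 2 NADPH-making dehydrogenases, were not called either, with means of 147 and 66.1 TPM in WT and 129 and 60.8 TPM in Idh2R172K.

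Among the transporters, 0 of 4 were called in Idh2R172K by limma, and 1 had an unadjusted p under 0.05. Slc2a1 (GLUT1), the broad glucose carrier and a HIF1 target, was at 37.9, 39.2, 38.2 and 35.1 TPM in WT and 49.4, 50.3, 53.0 and 44.7 TPM in Idh2R172K (log2 difference 0.38, SE 0.15, adjusted p = 0.0886). Its groups did not overlap. Slc2a3 (GLUT3) and the lactate carriers Slc16a1 (MCT1) and Slc16a3 (MCT4) overlapped WT. Of the 5 regulatory kinases, 0 were called and 0 had an unadjusted p under 0.05: Pdk1, Pdk2 and Pdk3, which switch off pyruvate dehydrogenase, and Pfkfb3 and Pfkfb4, which set the fructose 2,6-bisphosphate that drives phosphofructokinase. Pfkfb4 had the highest of their differences (0.34, SE 0.20, adjusted p = 0.29).

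The 5 HIF pathway genes did not move as 1 group. Ankrd37, a small ankyrin repeat gene induced by HIF1, was at 2.50, 2.88, 2.24 and 2.80 TPM in WT and 4.88, 4.04, 3.92 and 6.63 TPM in Idh2R172K, 1.87-fold higher (log2 difference 0.68, SE 0.16, adjusted p = 0.00507). Its levels rest on 46 to 63 rebuilt reads a library in WT and 73 to 122 in Idh2R172K. Hif1a, the oxygen-regulated subunit, was at 45.9, 45.6, 47.0 and 50.3 TPM in WT and 60.3, 60.4, 67.4 and 59.8 TPM in Idh2R172K. Vhl, the ubiquitin ligase part that recognises it, was at 49.7, 55.5, 46.9 and 54.9 TPM and 68.7, 68.3, 65.9 and 62.5 TPM. Both were above WT in all 4 libraries, and neither was called (log2 differences 0.39 and 0.36, adjusted p = 0.305 and 0.165). Bnip3, a mitophagy receptor, overlapped WT. Vegfa, the blood vessel growth factor, was at 7.61, 3.05, 6.62 and 6.62 TPM in WT and 1.66, 2.33, 3.29 and 4.45 TPM in Idh2R172K, overlapping and not called (log2 difference -0.82, SE 0.28, adjusted p = 0.0578).

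Tet2KO replicate 2 also bears on the comparison of Idh2R172K with WT, since all groups share 1 estimate of spread. Without it, 19 of 37 genes were called, 5 higher and 14 lower. The 12 genes above were among them, and Slc2a1, Hif1a and Vhl (higher) and Vegfa, Pfkl, Eno1 and Tkt (lower) were added. With the number 4 libraries of WT and the Idh groups left out as well, 23 were called, 9 higher and 14 lower, again with those 12 among them. The share of all genes called in these fits is not given here, so the counts cannot be set against a background.

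Markers of other cells moved in the same comparison, where, as above, the background was 15.4% called, 8.03% in the higher and 7.33% in the lower direction. Of 12 granulocyte-monocyte priming genes, 7 were lower in Idh2R172K, and their summed level was 5437 to 8407 TPM in WT and 3598 to 5006 TPM in Idh2R172K. Of 10 erythroid priming genes, 9 were lower, with sums of 1811 to 2102 TPM and 641 to 764 TPM. Of 9 macrophage genes, 2 were lower, with sums of 152 to 171 TPM and 88.0 to 106 TPM. Of 8 lymphoid priming genes, 1 was higher and 4 were lower, among them Dntt, and the sums were 959.6 to 1459 TPM and 370.1 to 465.9 TPM. Of 7 megakaryocyte priming genes, 2 were higher (Itga2b and Selp) and 3 lower, with sums of 348.7 to 408 TPM and 452.6 to 577 TPM. The B lineage list had 5 of 8 genes tested, 2 higher and 1 lower (90.28 to 107.7 TPM and 39.53 to 114.4 TPM). The T and NK list had 4 of 7 tested, 0 higher and 2 lower (796.7 to 1016 TPM and 724.6 to 816.4 TPM). Of 7 red cell genes, 0 were higher and 1 was lower (48.57 to 79.22 TPM and 44.43 to 69.16 TPM). Limma called 0 of 7 tested mature neutrophil genes, 0 of 8 tested immediate early genes and 0 of 1 tested gene of stroma and endothelium. No gene of any marker list was at 0 in every library, and their part in the results on the metabolic genes was not tested. In RNA from bulk cells, fewer cells of a type and less RNA per cell cannot be told apart.

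**Figure D4:**
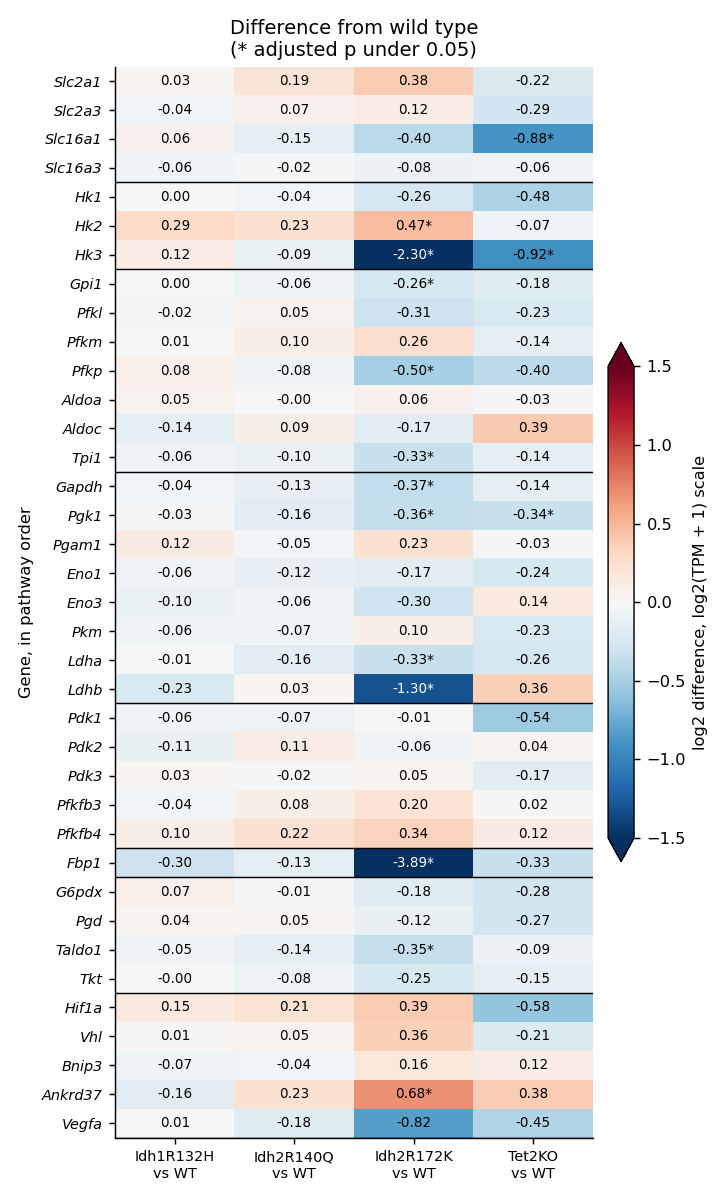
Difference of each mutant group from WT for the 37 tested genes, on the log2(TPM + 1) scale (blue lower, red higher; colour saturates at 1.5), in pathway order with lines between roles; an asterisk marks an adjusted p under 0.05. Asterisks fall on 12 genes in the Idh2R172K column, 3 in the Tet2KO column and 0 in the other columns.

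Neither Idh1R132H nor Idh2R140Q had a called gene among the 37 by limma, where 0.00705% and 0% of all genes were called. At an unadjusted p under 0.05 each had 1 gene, Hk2 (0.29, higher) in Idh1R132H and Taldo1 (-0.14) in Idh2R140Q, and limma-voom on rebuilt reads also called 0. Differences ran from -0.30 (Fbp1) to 0.29 (Hk2) in Idh1R132H, and from -0.18 (Vegfa) to 0.23 (Ankrd37) in Idh2R140Q. Hk2 was at 27.1, 23.4, 26.6 and 27.0 TPM in Idh1R132H and 23.6, 23.4, 27.9 and 24.7 TPM in Idh2R140Q. All 8 of these libraries were above the highest WT library, at 22.6 TPM. In Idh2R140Q, Slc2a1 (41.0 to 45.8 TPM) and Hif1a (51.9 to 58.0 TPM) were likewise above WT in all 4 libraries, without a call. Over the 37 genes, 3 lay above WT in all 4 Idh2R140Q libraries and 0 below, where 1.58% and 0.423% of all genes did. In Idh1R132H the counts were 1 and 0, against 0.973% and 0.734%.

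Set directly against the other Idh2 mutation, Idh2R172K was lower for 5 genes and higher for 0, where 10.5% of all genes were called, 3.76% higher and 6.74% lower. They were Fbp1 (-3.75, SE 0.17, adjusted p = 4.2e-11), Hk3 (-2.20, SE 0.18, adjusted p = 6.8e-08), Ldhb (-1.34, SE 0.13, adjusted p = 1.0e-06), Tpi1 (-0.23, SE 0.07, adjusted p = 0.0348) and Taldo1 (-0.21, SE 0.06, adjusted p = 0.0265). Under median-of-ratios scaling Tpi1 and Taldo1 were not called and Pfkl and Pfkp were. By libraries alone, 11 genes lay below Idh2R140Q and 3 above, where 9.69% and 7.38% of all genes did; the 3 were Hif1a, Vhl and Bnip3. Same-numbered libraries of these 2 groups deviated together, and with the number as a replicate block 10 genes were called, adding Pfkp, Gapdh and Vegfa (lower) and Pgam1 and Ankrd37 (higher). In both groups numbers 1 and 3 read as female and 2 and 4 as male, so number and sex cannot be fully told apart. Without Tet2KO replicate 2 the count was 11, and without replicate 4 of either of the compared groups it was 3. Against Idh1R132H, Idh2R172K had 11 called genes, 1 higher and 10 lower, where 13.5% of all genes were called, 6.21% higher and 7.32% lower. These were the genes called against WT other than Hk2, with Ankrd37 higher by 0.84 (SE 0.16, adjusted p = 0.000899). Fbp1, Hk3 and Ldhb differed by -3.58, -2.41 and -1.07. By libraries alone 15 genes lay below Idh1R132H and 5 above, where 11.4% and 11.7% of all genes did. Under median-of-ratios scaling Tpi1, Gapdh, Pgk1, Ldha and Taldo1 lost their calls, Pfkl, Tkt and Vegfa (lower) gained one, and 9 were called, 1 higher and 8 lower. The count was 18 without Tet2KO replicate 2, and 23 without the number 4 libraries as well. Shares of all genes are not given for the alternative fits in this paragraph.

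Tet2KO against WT had 3 called genes of 37 (8.11%), 0 higher and 3 lower, where 7.05% of all genes were called, 5.02% higher and 2.02% lower. Under median-of-ratios scaling 11 were called, 0 higher and 11 lower, with the share of all genes in that fit not given here. Hk3 differed by -0.92 (SE 0.18, adjusted p = 0.00817). Slc16a1, the monocarboxylate carrier that moves lactate across the cell membrane, was at 130, 128, 153 and 108 TPM in WT and 80.5, 36.7, 93.9 and 84.3 TPM in Tet2KO (log2 difference -0.88, SE 0.24, adjusted p = 0.0335). Pgk1 was at 107, 94.5, 123 and 124 TPM in Tet2KO (log2 difference -0.34, SE 0.10, adjusted p = 0.043). The groups of all 3 genes were apart. Of the 37 genes, 5 lay below WT in all 4 libraries and 1, Ankrd37, above, where 4.51% and 9.11% of all genes did. Eno2, which was not tested, had 52 to 79 rebuilt reads a library in Tet2KO and 14 to 31 in WT. Fbp1 overlapped WT (log2 difference -0.33, SE 0.17).

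Which genes were called in Tet2KO depended on replicate 2. Without it, Hk3 stayed lower (-0.78, adjusted p = 0.0158), and Slc16a1 (adjusted p = 0.0533) and Pgk1 (adjusted p = 0.0775) were no longer called. Aldoc, the brain-type aldolase, and Ldhb were then called higher. Aldoc was at 13.03, 14.7, 15.6 and 12.4 TPM in WT and 17.7, 9.32, 28.8 and 24.4 TPM in Tet2KO (0.70 without replicate 2, adjusted p = 0.0101; 0.39 with it, adjusted p = 0.257). Ldhb differed by 0.49 without replicate 2 (adjusted p = 0.0178) and 0.36 with it (adjusted p = 0.095). The median of the 37 differences was -0.18 with all libraries and -0.055 without that one, and 36 of 37 differences were higher without it. Over all genes the median was 0.02 with all libraries. It was 0.16 with replicate 2 and the number 4 libraries of WT and the Idh groups left out. A rise was therefore not confined to the 37 genes. Leaving out single WT libraries 1, 2 or 3, or Tet2KO replicate 4, left 1 called gene. Without Tet2KO replicate 2 and the number 4 libraries of the other groups, 10 were called, 7 higher and 3 lower. The share of all genes called in that fit is not given here.

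**Figure D5:**
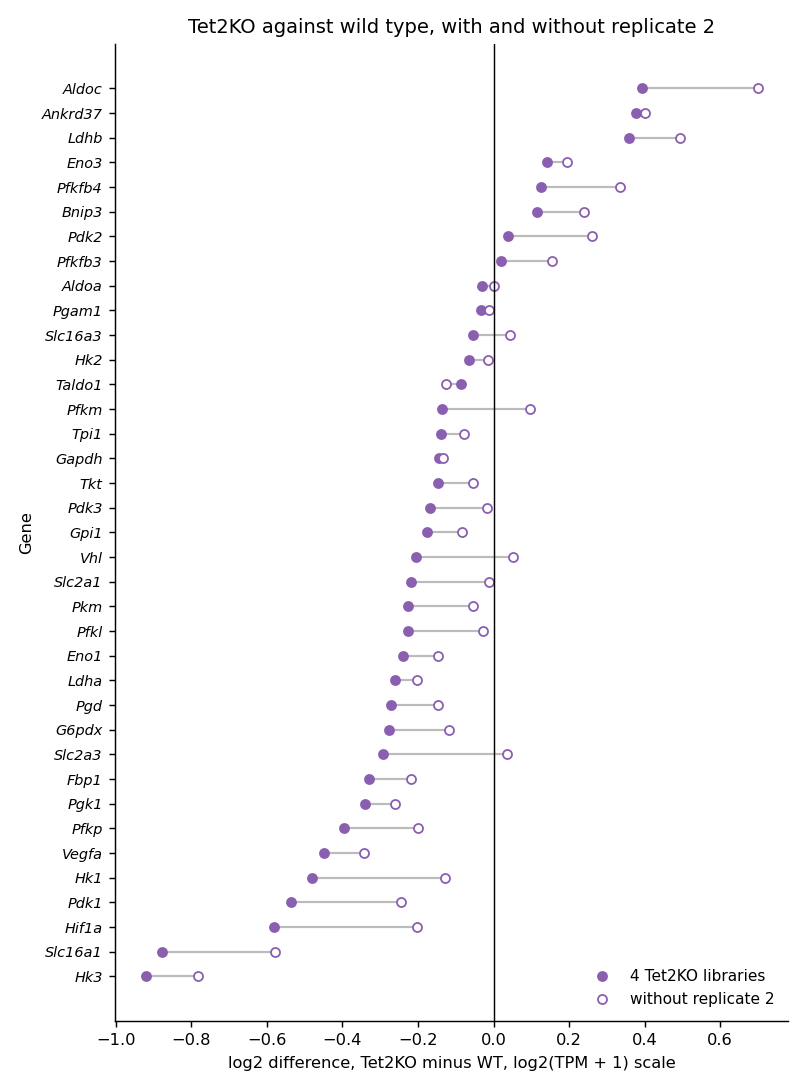
Difference between Tet2KO and WT on the log2(TPM + 1) scale for the 37 tested genes, with all 4 Tet2KO libraries (filled) and without replicate 2 (open), joined by a line. For 36 of the 37 genes the open point lies to the right of the filled one, and 13 open points against 8 filled points lie above 0. Genes outside the list are not drawn.

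Marker lists beside the Tet2KO comparison moved as follows, beside a background of 5.02% higher and 2.02% lower calls (5.34% and 1.59% without Tet2KO replicate 2). Of 10 erythroid priming genes, 7 were lower, with sums of 1351 to 1895 TPM, and 7 were lower without replicate 2. Of 7 red cell genes, 5 were higher, among them the globins Hbb-bs and Hba-a2, and 1 was lower, with sums of 94.05 to 133.4 TPM against 48.57 to 79.22 in WT; without replicate 2, 6 were tested, 3 higher and 1 lower. Of 9 macrophage genes, 2 were higher, with sums of 207 to 231 TPM, and 0 were called without replicate 2. Of 8 tested immediate early genes 1, Fosb, was higher, with sums of 1355 to 2686 TPM against 377 to 2022 in WT, and 0 were called without replicate 2. Of 7 megakaryocyte priming genes 1, Vwf, was lower, with sums of 264.4 to 351.8 TPM, and it was called without replicate 2 too. Of 12 granulocyte-monocyte priming genes, limma called 0, with 6 under 0.05 before adjustment, and sums of 4684 to 6231 TPM. The lymphoid priming, mature neutrophil, B lineage, T and NK, and stroma and endothelium lists had 0 called genes with and without replicate 2. The part of these lists in the results was not tested.

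The direct comparison of Idh2R172K with Tet2KO tested where these groups differed. Idh2R172K carries Vav-Cre and the Tet2KO label names none, so the mutations and the Cre transgene cannot be told apart here. Of 37 genes, 11 were called, 5 higher in Idh2R172K and 6 lower (29.7%), where 26.8% of all genes were called, 14.9% higher and 11.9% lower, a similar share. Lower were Fbp1 (-3.56), Ldhb (-1.66, SE 0.13, adjusted p = 5.6e-08), Hk3 (-1.38, SE 0.18, adjusted p = 1.9e-05), Taldo1 (-0.26), Gapdh (-0.23) and Tpi1 (-0.20). Higher were Hif1a (0.97, SE 0.24, adjusted p = 0.00691), Slc2a1 (0.60, SE 0.15, adjusted p = 0.00698), Vhl (0.56, SE 0.17, adjusted p = 0.0204), Hk2 (0.53, SE 0.11, adjusted p = 0.00191) and Pgam1 (0.26, SE 0.09, adjusted p = 0.0366). Under median-of-ratios scaling 12 were called, 7 higher and 5 lower, and Taldo1, Gapdh, Tpi1 and Pgam1 were not among them. By libraries alone, 6 genes lay above Tet2KO and 4 below, where 13.8% and 11.7% of all genes did. Hif1a in Tet2KO was at 45.6, 13.7, 42.3 and 35.3 TPM and Vhl at 53.3, 25.7, 57.1 and 50.5 TPM, both with their low value in replicate 2. All 4 Idh2R172K libraries were above all 4 of Tet2KO for both genes, and without replicate 2 both were still called, at 0.59 and 0.30. Without replicate 2, 15 of 37 genes were called (40.5%), 4 higher and 11 lower, where 23.1% of all genes were called. Pgam1 lost its call (adjusted p = 0.066), and Gpi1, Pfkl, Pfkp, Aldoc and Pdk2 were added, all lower in Idh2R172K. Without the number 4 libraries of WT and the Idh groups as well, 17 were called, 5 higher and 12 lower. The share of all genes called is not given here for that fit or for median-of-ratios scaling. With all those libraries left out the median of all genes was -0.06, against 0.06 in the main fit.

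Other genes of these pathways were looked up from lists. Of 37 further genes of glycolysis, gluconeogenesis and the pentose phosphate pathway, 23 were tested. In Idh2R172K against WT 0 were called higher and 4 lower, with a median difference of -0.23. That is 17.4% called, near the 15.4% of all genes. All 4 were lower, a direction in which 7.33% of all genes were called, and the median of all genes was 0.11. Pklr, the liver and red cell pyruvate kinase, fell from a mean of 5.03 to 0.624 TPM (log2 difference -1.90, adjusted p = 7.6e-07). Pcx, pyruvate carboxylase, which opens gluconeogenesis, fell from 7.68 to 2.18 TPM (-1.45, adjusted p = 0.00131). The glucose carrier Slc2a8 fell by 0.79 and G6pc3, a glucose 6-phosphatase catalytic subunit, by 0.55. Pck2, the mitochondrial PEP carboxykinase, was not called (154 against 184 TPM, adjusted p = 0.306). Pck1 and Fbp2 were below the level for testing, and Fbp2 was listed at 0 in every library. In Tet2KO, 0 of the 23 were called higher and 1 lower, where 7.05% of all genes were called. It was Pklr, at a mean of 2.26 TPM (-0.89, adjusted p = 0.0118). Without Tet2KO replicate 2, 1 was called higher and 2 lower. Between Idh2R172K and Tet2KO 3 of the 23 were higher and 4 lower (30.4% called, near the 26.8% of all genes), led by Pklr (0.624 against 2.26 TPM) and, in log2 difference, Slc2a8 (-0.70), G6pc3 (-0.35) and H6pd (0.91), the hexose 6-phosphate dehydrogenase of the endoplasmic reticulum. Without replicate 2, 1 was higher and 6 lower, and H6pd was no longer called.

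Of 36 further HIF pathway and hypoxia genes, 28 were tested. In Idh2R172K against WT 1 was called higher and 4 lower, with a median difference of 0.13. That is 17.9% called, again near the 15.4% of all genes, of which 8.03% were higher and 7.33% lower. The 4 lower calls thus weigh more against their background than the 1 higher call. Rora, a nuclear receptor, rose by 0.53 (adjusted p = 0.0175). Egln3, one of the HIF prolyl hydroxylases and itself a HIF target, fell from a mean of 44.4 to 27.7 TPM (-0.67, adjusted p = 3.6e-05). Mif, a cytokine, fell from 1830 to 1102 TPM (-0.73), Cited4 fell by 1.56 and Cxcr4, the marrow homing receptor, by 0.38. Arnt, Egln1, Egln2 and the asparagine hydroxylase Hif1an were not called against WT in Idh2R172K or in Tet2KO, and Epas1 was below the level for testing. In Tet2KO, Rora rose by 0.57, and Cited4 and Ero1l fell by 1.12 and 0.73, which is 10.7% called against 7.05% of all genes; without replicate 2, Rora and Cited4 were called and Ero1l was not. Between Idh2R172K and Tet2KO 6 of the 28 were higher and 3 lower (32.1% called, against 26.8% of all genes), led by Egln3 (-0.51), Mif (-0.74), Ak4 (0.74), Gys1 (0.64), Cited2 (1.17) and Higd1a (-0.40); Hif1an was higher by 0.84 (adjusted p = 0.0335). Without replicate 2, 3 were higher and 2 lower (17.9%, against 23.1% of all genes), and Higd1a and Hif1an were no longer called.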

How the data were processed

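RNA-seq of LSK cells from 20 pools was analysed from 1 table of TPM values per gene, as deposited. The submitters' processing notes name Trim Galore, STAR, featureCounts and the build mm10; their versions, settings and annotation release are not given in the sources used here. Gene names, positions and exon lengths came from GENCODE M21, which held 45229 of the 46078 gene IDs. The 4 table columns that name the 140Q mutation under IDH1 were read as Idh2R140Q, the group with that mutation. The members and all lists were chosen with earlier results of these data known. Counts over the LSK and stem cell marker list are not reported here.

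The 14176 genes averaging 1 TPM or more over the 20 libraries were tested. The tool was limma (version 3.58.1, R 4.3.3), on log2(TPM + 1) values, with 1 fit of 5 groups, a variance trend, 7 two-sided contrasts and Benjamini-Hochberg adjustment over all genes tested, called at an adjusted p under 0.05. The fit was tested on simulated data with independent noise for each gene and library. These data held no outlying library and no deviation shared by same-numbered libraries, so the test does not cover those features. Fold differences given in the text are ratios of mean TPM; log2 differences understate the change of low genes. All 38 members were named; of the other lists, up to 6 called genes with the smallest adjusted p, and 9 set genes.

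TPM times exon length gave whole reads (within 0.1) for 90.1% to 91.2% of low values (up to 30 reads), from which read depth was rebuilt; limma-voom on them was an alternative. In all, 33 alternatives were run. Same-numbered libraries deviated together (each of 4 correlations over 0.1) for Idh1R132H with WT (0.176 to 0.489), Idh2R172K with Idh2R140Q (0.213 to 0.534) and Idh2R172K with Idh1R132H (0.167 to 0.478), a pairing read from the data. By Xist and Y-linked transcripts each group had 2 pools read as female and 2 as male. In WT and the Idh groups numbers 1 and 3 read as female, and in Tet2KO numbers 3 and 4. Those of Tet2KO had 39.3 and 40.7 TPM of Y-linked transcripts, against 6.30 to 23.6 in the other pools read as female. Sex was inferred, and whether a pool mixed the sexes was not tested.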

Additional observations from a re-analysis of the deposited data

Results flagged for a closer look

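Each of the 38 genes was looked at in each of the 5 groups for a library standing apart from the other 3 (its gap to the nearest library, as a share of the group's range, above the 95% critical value of Dixon's test). Of 190 such groups, 14 met this, where chance gives about 1 in 20. In Idh2R172K, Fbp1 was lowest in replicate 3 at 1.25 TPM, the others being at 2.41 to 2.48; Pgam1 was lowest in replicate 4 (185 TPM), Tkt lowest in replicate 1 (198 TPM) and Hif1a highest in replicate 3 (67.4 TPM). In Idh2R140Q, replicate 3 was highest for Gapdh (682 TPM), Pgk1 (143 TPM) and Ldha (1472 TPM). In Idh1R132H, Hk2 was lowest in replicate 2 (23.4 TPM), Tpi1 lowest in replicate 3 (568 TPM), Eno1 highest in replicate 1 (212 TPM) and Vhl lowest in replicate 1 (48.4 TPM). In WT, Pfkm was highest in replicate 4 (76.6 TPM) and Pgd lowest in replicate 2 (60.6 TPM). In Tet2KO, Pdk2 was lowest in replicate 2, at 27.1 TPM against 48.7 to 52.8.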

How the results depend on the processing

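The number of called genes was recomputed under 33 alternatives. For Idh1R132H and Idh2R140Q against WT it was 0 in all of them. The share of all genes called is not given for most alternatives, so changes in the counts below are not set against a background. Fbp1, Hk3, Ldhb, Taldo1, Tpi1, Gapdh and Ankrd37, 7 of the 12 genes called in Idh2R172K against WT, were called in every alternative that tested them; Hk2 was lost under quantile scaling (adjusted p = 0.13). For Idh2R172K against WT the count of 12 became 25 with library weights, 23 without the number 4 libraries of WT and the Idh groups and Tet2KO replicate 2, and 8 to 19 with single libraries left out. For Tet2KO against WT the count of 3 became 1 with no filter, 11 with median-of-ratios scaling, 0 with only the 2 groups compared, 13 with library weights, 10 without the named set of libraries, 6 with limma-voom on rebuilt reads, and 1 to 4 with single libraries left out. For Idh2R172K against Tet2KO the count of 11 became 3 with only the 2 groups, 18 with weights, 17 without the set, and 8 to 15 with single libraries left out. Against Idh2R140Q the count of 5 became 9 with quantile scaling, 14 with weights, 3 with no variance trend, 12 without the set, and 3 to 11 with single libraries left out. Against Idh1R132H the count of 11 became 17 with only the 2 groups, 24 with weights, 23 without the set, and 8 to 18 with single libraries left out. The cause was not tested, except that comparisons of 2 groups and left-out libraries use fewer samples.

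With the replicate number as a replicate block, the counts were 15 (Idh2R172K against WT), 8 (Tet2KO against WT), 14 (Idh2R172K against Tet2KO), 10 (Idh2R172K against Idh2R140Q) and 13 (against Idh1R132H). In the first 3 of these, and in Idh2R140Q against WT (count 0), not every library correlated best with its own number. The number follows the inferred sex of the pool in WT and the Idh groups, and number 4 there has the low Gm23935 share. Number and these traits cannot be fully told apart. In Tet2KO the numbers follow another order of sex. Weights and the set without those libraries raised the median of all genes in Tet2KO against WT from 0.02 to 0.16 and lowered that of Idh2R172K against Tet2KO from 0.06 to -0.06. Pfkl, at -0.08 in Idh2R172K against Tet2KO, ranged from -0.28 without Tet2KO replicate 2, where it was called, to 0.036 without Tet2KO replicate 3. Eno2 was left untested by the level filter and rested on 13 to 79 rebuilt reads a library.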
